A study of Mus musculus with 25 samples.

Results

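The genes described here are the MHC class II antigen presentation genes of mouse pancreatic islets. They were chosen by name, as the chains, chaperones and master regulator of the class II pathway, and number 8 of the 17885 genes in the deposited tables. The 8 are H2-Aa, H2-Ab1, H2-Eb1, Cd74, H2-DMa, H2-DMb1, H2-DMb2 and Ciita. Each has a row in every table. The study concerns BAF60C, a chromatin remodelling subunit encoded by Smarcd3, in type 2 diabetes, and islet messenger RNA was read on a BGISEQ-500 in paired-end mode. Values were deposited for 19 libraries in 8 groups and 4 tables, out of 25 labelled samples in 10 groups. The flox/flox and BcBKO groups on chow were not analysed here. Per the labels each sample pooled islets of at least 3 mice, and sex, age and strain are not given in the sources used here.

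Mice of the HFD table, 2 pools each of flox/flox and BcBKO, were all kept on a high-fat diet for 3 months. BcBKO is described as an ablation specific to beta cells in Pdx1-cre mice, and Pdx1 is also expressed in pancreatic progenitors. The labels do not say whether the flox/flox mice carried the Cre. CTR_PBS, KO_PBS and KO_REG3B-Fc, 2 libraries each, form the PBS table, for which the labels give neither the gene behind KO nor the dose, route or time of the agents. REG3B is a secreted lectin. In the db table stand db_GFP and db_REG3B, 2 libraries each, with no genotype, vector or time in the labels beyond these names. The WT table holds 5 libraries of wild-type islets with no treatment named. Nothing in the labels ties a replicate number to a shared culture or day. The p-values measure the spread between the 2 libraries of each tested group, and need not cover the spread between islet preparations. For example, Cd74 was at 109.73 and 103.04 FPKM in CTR_PBS but ran from 66.83 to 209.68 FPKM within the WT group.

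MHC class II molecules sit on the surface of antigen-presenting cells such as dendritic cells, B cells and macrophages, and display peptides from engulfed proteins to CD4+ T cells. An alpha and a beta chain pair in the endoplasmic reticulum, where the invariant chain (Cd74) fills the groove and steers the complex to endosomes. Cathepsins trim the invariant chain there, and the H2-DM heterodimer then exchanges the remaining fragment for antigenic peptide, while H2-DO, found mainly in B cells, restrains it. Transcription of these genes runs through CIITA, a coactivator without DNA binding of its own. It is recruited to the X and Y boxes of class II promoters by the RFX, CREB and NF-Y factors. In islets the pathway is known mostly from resident macrophages and from leukocytes that enter in autoimmune diabetes.

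In GRCm38.p6, 6 of the members lie in the class II region of chromosome 17, all as protein-coding genes. In map order these are H2-DMa (34119693 to 34139101), H2-DMb2 (34143229 to 34151553), H2-DMb1 (34153191 to 34160229), H2-Ab1 (34263227 to 34269418), H2-Aa (34282744 to 34287823) and H2-Eb1 (34305867 to 34316674). Ciita lies on chromosome 16 (10480014 to 10531064), and Cd74 lies outside the region too. The RefSeq promoter table of the same build matched 5 of the 8 members. Each of its windows covers 300 bases around a start site. The 4 stretches below come from the members whose windows held matches to class II promoter elements. They are read 5′ to 3′ on the gene's strand, with the motif matches in capitals:

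H2-Aa (minus strand, chr17:34287852-34287917): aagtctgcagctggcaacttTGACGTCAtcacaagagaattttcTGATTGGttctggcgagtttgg

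H2-Eb1 (plus strand, chr17:34305758-34305827): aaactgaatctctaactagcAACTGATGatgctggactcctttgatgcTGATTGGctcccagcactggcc

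H2-DMb1 (plus strand, chr17:34153079-34153149): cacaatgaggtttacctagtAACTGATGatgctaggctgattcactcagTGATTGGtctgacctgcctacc

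H2-DMb2 (plus strand, chr17:34145108-34145178): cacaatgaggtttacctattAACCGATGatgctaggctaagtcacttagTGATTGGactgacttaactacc

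The last capitals in each stretch are the Y box core TGATTGG, the inverted CCAAT box that NF-Y reads. It was found in 7.82% of 32851 promoter windows of this length when both strands were searched. The first capitals are an X box core, AACNGATG, in H2-Eb1, H2-DMb1 and H2-DMb2, present in 2.32% of windows. In H2-Aa they are the palindrome TGACGTCA, which CREB-type factors read, present in 1.79% of windows. X and Y box cores occurred together in 0.186% of windows, and 21 bases separated them in H2-DMb1 and H2-DMb2 against 20 in H2-Eb1. The matches do not overlap one another. Neither of the 2 H2-DMa windows held any of the motifs. A match is a description of the letters only, and a link between the motifs and the changes below was not tested.

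The genes with at least 1 FPKM (fragments per kilobase of transcript and library size) numbered 10402 to 12553 per library. Insulin transcripts and digestive enzymes took unequal shares of the libraries, and these shares move all other FPKM. Before testing, each library was therefore divided by its median ratio to the geometric mean library of its table, and a change is given relative to the median gene. FPKM of single libraries are printed as deposited. Smarcd3 checks the label of the ablation. Its level was 2.57 and 2.55 FPKM for flox/flox against 3.11 and 2.40 FPKM for the libraries labelled BcBKO, and it did not fall with that label (log2 change 0.00 ± 0.15 SE, adjusted p = 1.000). Whether the counted part of the gene is the deleted part is not given in the sources used here. In a bulk islet library, fewer antigen-presenting cells and less class II RNA per cell cannot be told apart. The 4 tables were normalized separately, so levels are set side by side across tables but tested only within one.

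Cd74 was the most abundant member in 18 of 19 libraries, with 35.02 to 214.88 FPKM. The exception was WT replicate 4, where H2-Aa (68.46 FPKM) stood just above Cd74 (66.83 FPKM). The alpha chain gene H2-Aa exceeded its partner H2-Ab1 in all 15 libraries outside the db table and in 0 of 4 libraries inside it. H2-Ab1 exceeded H2-Eb1, the beta chain of the other class II isotype, in 18 of 19 libraries. The peptide-loading genes came next, with H2-DMa at 2.34 to 8.29 FPKM and H2-DMb1 at 1.22 to 4.97 FPKM. Ciita was the lowest member in 16 libraries and reached 1 FPKM in 3, both KO_PBS libraries and WT replicate 2. In CTR_PBS, KO_PBS and KO_REG3B-Fc the order from Cd74 through H2-Aa and H2-Ab1 to H2-Eb1 had no overlap between neighbours. In flox/flox the ranges of H2-Aa and H2-Ab1, of H2-Ab1 and H2-Eb1, and of H2-DMa and H2-DMb1 overlapped. In db_GFP and in db_REG3B the neighbours H2-Eb1 and H2-DMa overlapped. In WT, neighbours overlapped from Cd74 down to H2-Eb1, and again from H2-DMa down to Ciita.

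**Figure D1:**
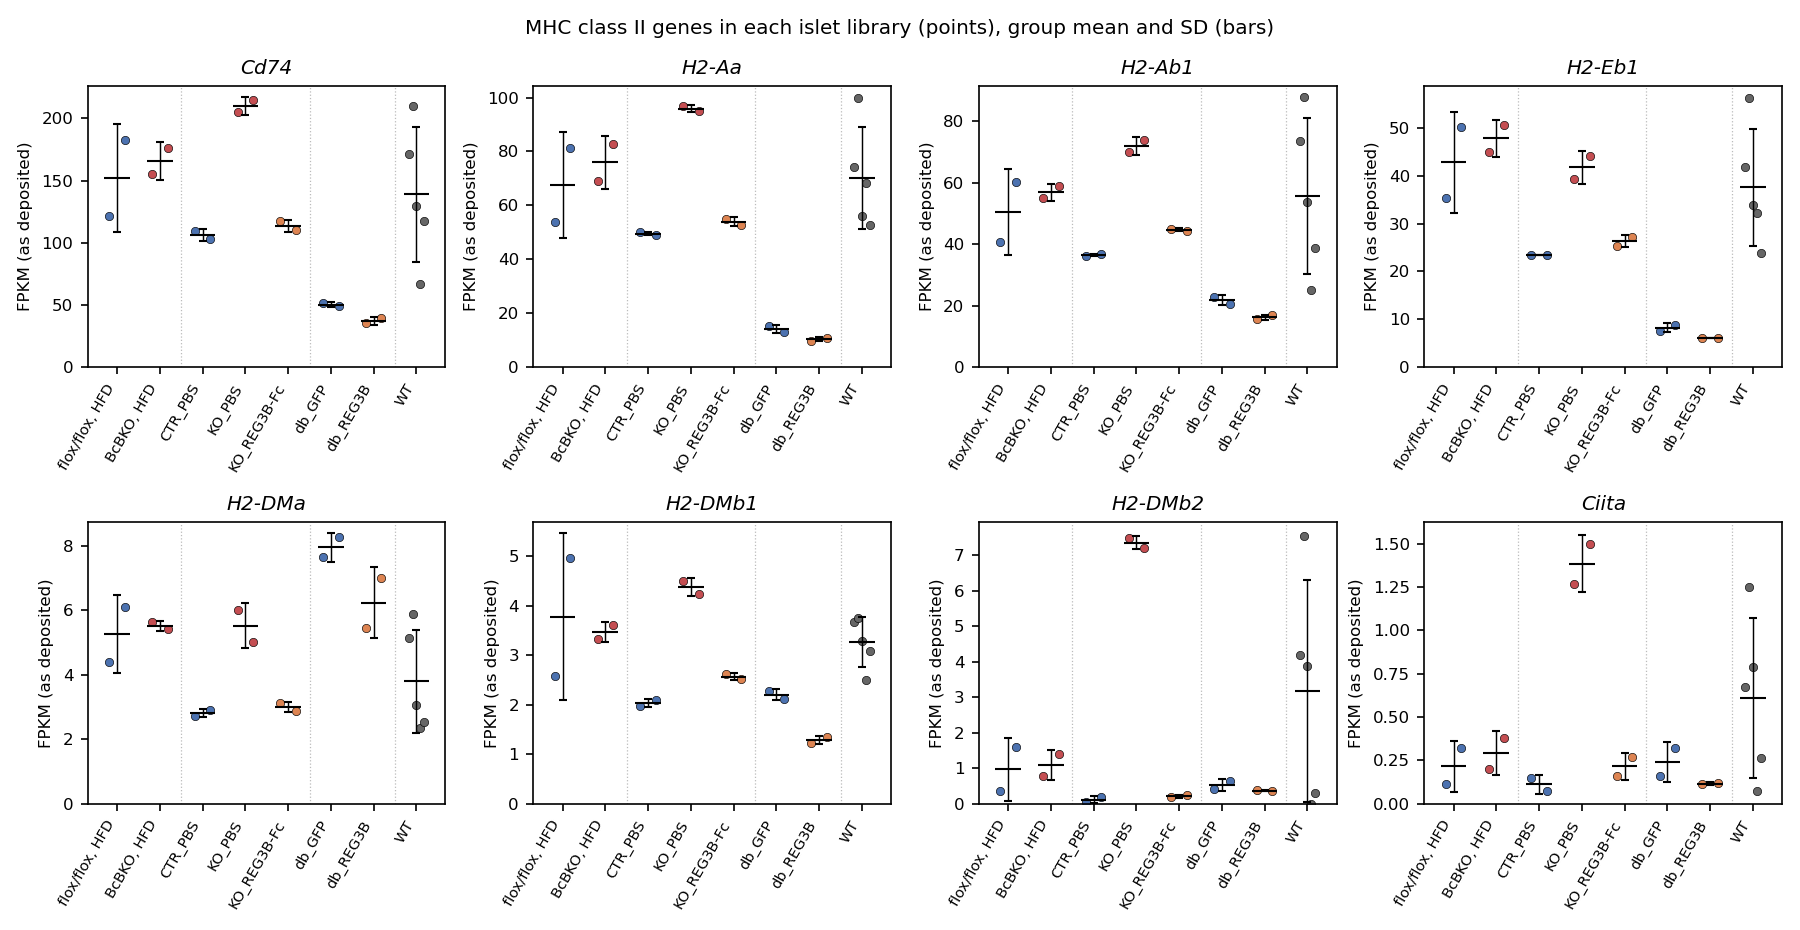
Each panel plots 1 class II gene, with the group on the x axis and FPKM as deposited on the y axis; points are libraries, horizontal bars are means and vertical bars are SDs, and dotted lines separate the 4 tables. The KO_PBS points stand above CTR_PBS and KO_REG3B-Fc in every panel, for example at 205.07 and 214.88 FPKM for Cd74. Of all genes tested, 74.0% did not overlap in either direction between KO_PBS and CTR_PBS after scaling. Between KO_REG3B-Fc and KO_PBS the share was 73.5%. H2-DMb2 and Ciita entered the test only through KO_PBS. The db points are low for all panels of surface chains.

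The genes of the surface chains, the invariant chain and the peptide-loading chains H2-DMa and H2-DMb1 were higher in KO_PBS than in CTR_PBS. The 6 members that were above 1 FPKM in every library of the table all rose, by 1.17 to 1.46 on the log2 scale, beside 21.7% of all genes called higher and 25.9% called lower. On the deposited scale, where the median gene itself moved by -0.44, 8.66% of all genes were called higher and 81.5% lower, and these 6 were still called higher. Their deposited means were 1.78 to 2.15 times those of CTR_PBS, and 2.49 to 3.02 times after scaling to the median gene. Ciita and H2-DMb2 entered the test only through their level in KO_PBS, so they are described by value and add nothing to this count.

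Among the surface chains, H2-Aa, the alpha chain of I-A, measured 49.96 and 49.12 FPKM in the controls against 96.82 and 94.99 FPKM in KO_PBS. The groups were far apart, with a log2 change of 1.42 ± 0.03 SE (adjusted p = 6.16e-08). H2-Ab1, the I-A beta chain, went from 36.25 and 36.70 FPKM to 69.96 and 73.99 FPKM, a log2 change of 1.44 ± 0.04 SE (adjusted p = 1.33e-07). The pair thus kept nearly the same proportion, as the ratios further on show. H2-Eb1, the beta chain of I-E, stood at 23.51 and 23.49 FPKM in controls against 39.33 and 44.24 FPKM in KO_PBS, with a log2 change of 1.28 ± 0.07 SE (adjusted p = 2.17e-06). Cd74, the invariant chain gene on chromosome 18 (60803849 to 60812652), gave 109.73 and 103.04 FPKM in the controls. The KO_PBS pair gave 205.07 and 214.88 FPKM, a log2 change of 1.46 ± 0.04 SE (adjusted p = 1.38e-07).

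The peptide-loading genes moved with the chains they serve. H2-DMa was listed at 2.73 and 2.91 FPKM in controls against 6.02 and 5.03 FPKM in KO_PBS (log2 change 1.17 ± 0.08 SE, adjusted p = 7.32e-06). H2-DMb1 had 1.97 and 2.09 FPKM against 4.5 and 4.24 FPKM (log2 change 1.21 ± 0.06 SE, adjusted p = 1.3e-06). The second DM beta chain gene, H2-DMb2, behaved unlike H2-DMb1 in size. It was close to 0 in CTR_PBS, with 0.04 and 0.18 FPKM, and reached 7.48 and 7.22 FPKM in KO_PBS, above H2-DMb1 in the same libraries. Its fitted log2 change was 3.25 ± 0.08 SE, and the authors' deposited table gives it as 6.70. Of the 50-base stretches of the H2-DMb2 transcript, 25.2% also occur in H2-DMb1, so reads of the shared parts may have been assigned to either gene and both levels are uncertain to that extent.

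Ciita, the coactivator that switches the class II genes on, was listed at 0.15 and 0.07 FPKM in both controls against 1.27 and 1.5 FPKM in KO_PBS. Its log2 change was 1.34 ± 0.09 SE on the scale with a pseudocount of 1, which compresses low values. The authors' deposited table gives it as 4.03. Ciita overlaps Dexi on the opposite strand, and H2-DMa overlaps Brd2 likewise. Whether the counting used strand is not given in the sources used here, so reads of these pairs may mix.

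In KO_REG3B-Fc the same genes were back near the control level. The same 6 members all fell against KO_PBS, by 1.06 to 1.48 on the log2 scale, beside 22.5% of all genes called lower and 23.8% called higher. On the deposited scale 6.97% were called lower and 86.2% higher, with these 6 still among the lower. This comparison shares the KO_PBS libraries with the one before, so the 2 are not independent. H2-Aa measured 55.08 and 52.83 FPKM with REG3B-Fc, a log2 change from KO_PBS of -1.42 (adjusted p = 3.45e-08). Cd74 measured 117.06 and 109.88 FPKM, a log2 change of -1.48 (adjusted p = 9.47e-08). H2-Ab1 had 44.97 and 44.41 FPKM (log2 change -1.27), and H2-Eb1 had 25.40 and 27.26 FPKM (log2 change -1.23). The groups did not overlap for any of these 4 genes, beside 73.5% of all genes tested that did not overlap after scaling. The DM alpha chain H2-DMa was at 3.11 and 2.89 FPKM (log2 change -1.19) and its partner H2-DMb1 at 2.61 and 2.52 FPKM (log2 change -1.06). H2-DMb2 was at 0.18 and 0.24 FPKM and Ciita at 0.16 and 0.27 FPKM, both far below their KO_PBS values.

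H2-DMb2 and Ciita were again set aside when KO_REG3B-Fc was compared with CTR_PBS directly. Of the other 6 members, 1 passed the test, beside 4.95% of all genes called higher and 6.12% called lower. That gene was H2-Ab1, with both REG3B-Fc libraries above both controls, beside 58.2% of all genes tested that did not overlap after scaling. It was higher by 0.17 ± 0.04 SE on the log2 scale (adjusted p = 0.0451). The call was lost with no filter on low genes (adjusted p = 0.0839) and without any 1 of the 4 libraries of these groups. On the deposited scale H2-Ab1 (0.29) and H2-DMb1 (0.23) were both called, beside 16.8% of all genes called higher and 2.87% lower. The other log2 changes ran from -0.02 for Cd74 and H2-DMa, which turned to 0.09 and 0.07 on the deposited scale, to 0.15 for H2-DMb1 (adjusted p = 0.154). H2-Aa differed by 0.00 ± 0.03 SE.

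**Figure D2:**
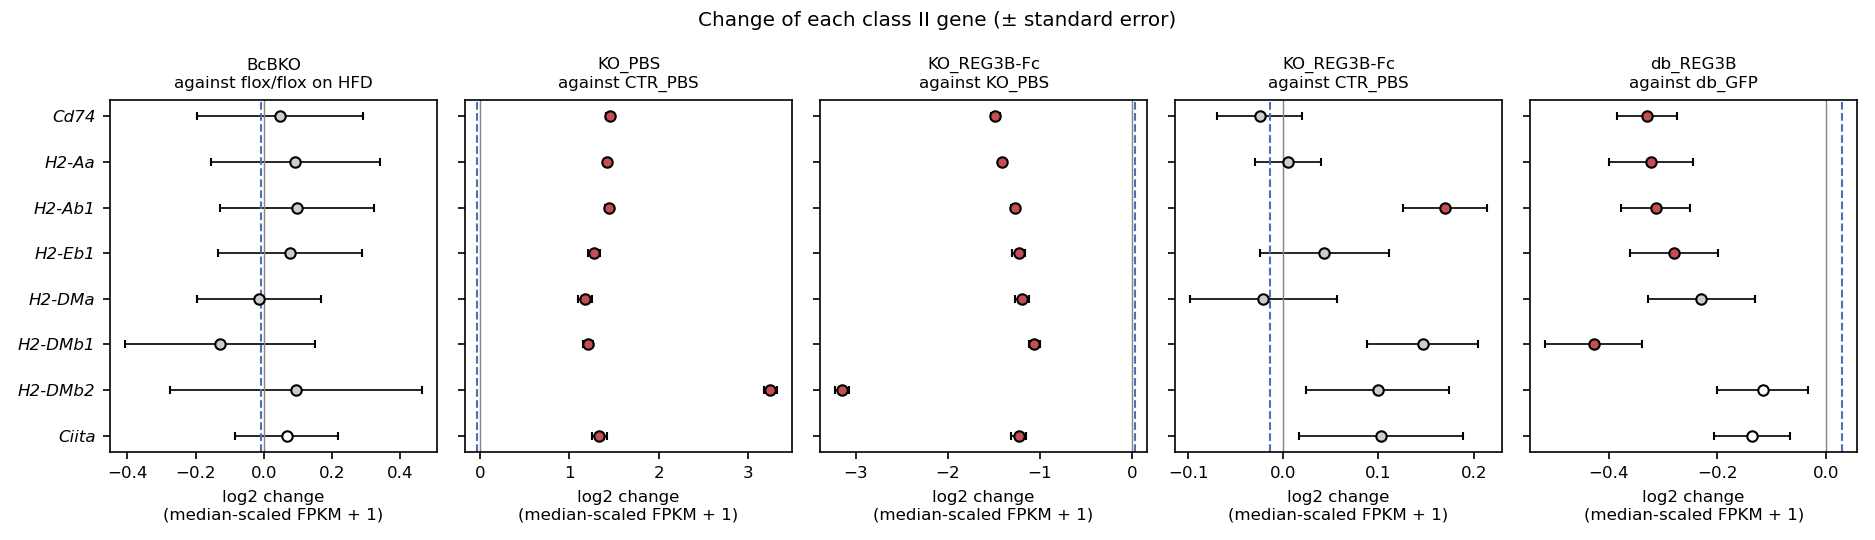
Log2 change of each class II gene (x axis, median-scaled FPKM + 1; bars are standard errors) in the 5 comparisons; red points passed an adjusted p of 0.05 in limma, grey points did not, open points were below the filter and come from a fit without it, and the dashed line is the median of all genes. Members lie between 1.17 and 3.25 for KO_PBS against CTR_PBS, where H2-DMb2 and Ciita passed the filter only through KO_PBS. On HFD the members lie around 0, and the x axes differ between panels.

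Summed levels of B cell, macrophage and dendritic cell markers were also highest in KO_PBS among the groups of the PBS table. Of 7 B cell genes (Cd79a, Cd79b, Ms4a1, Cd22, Fcmr, Pax5 and Blk), all but Cd79a entered the test only through KO_PBS, so their calls are not counted and they are described by value. Cd79a, a signalling chain of the B cell receptor, was at 3.23 and 3.10 FPKM for the controls, 30.26 and 29.93 FPKM for KO_PBS, and 3.73 and 3.55 FPKM with REG3B-Fc. It was called higher and then lower, with log2 changes of 3.35 (adjusted p = 1.11e-08) and -3.28 (adjusted p = 9.46e-09). The summed level of the 7 genes was 3.40 and 3.65 FPKM in CTR_PBS and 60.06 and 59.72 FPKM in KO_PBS. With REG3B-Fc it was 4.20 and 4.19 FPKM. Ms4a1, which encodes the B cell surface protein CD20, was listed at 0 in both CTR_PBS libraries and at 5.53 and 5.39 FPKM in KO_PBS. Macrophage genes, 7 of 9 tested, were called higher in 7 for KO_PBS against CTR_PBS and lower in 7 for KO_REG3B-Fc against KO_PBS, beside 21.7% and 22.5% of all genes. As deposited, 6 were called higher in the first, beside 8.66% of all genes. In the second 4 were called lower and 1 higher, beside 6.97% and 86.2%. Their sum was 77.1 and 77.54 FPKM for the controls, 174.19 and 166.2 FPKM for KO_PBS, and 101.93 and 99.78 FPKM with REG3B-Fc. Most of the macrophage difference was in Lyz2, a lysozyme also made by other myeloid cells, with 94.53 and 88.96 FPKM in KO_PBS against 11.28 and 10.41 FPKM. C1qa, a complement gene of resident macrophages, measured 33.86 and 32.43 FPKM against 32.69 and 34.37 FPKM, overlapping as deposited and higher by 0.46 on the log2 scale relative to the median gene.

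Dendritic cell genes summed to 2.79 to 2.81 FPKM in CTR_PBS, 4.56 to 4.74 FPKM in KO_PBS and 3.08 to 3.18 FPKM in KO_REG3B-Fc. Of these 7 genes 2 were tested, both called higher and then lower after scaling, beside 21.7% and 22.5% of all genes. As deposited, 0 of the 2 were called in the first comparison. Ptprc, the leukocyte surface phosphatase CD45, was at 0.66 and 0.79 FPKM for the controls, 5.43 and 4.94 FPKM for KO_PBS, and 1.09 and 1.00 FPKM with REG3B-Fc. T cell genes summed to 0.68 and 0.29 FPKM in CTR_PBS against 4.39 and 5.11 FPKM in KO_PBS. The 7 acinar enzyme genes moved the same way. Their share of summed FPKM was 12.7 and 12.6% for the controls, 25.6 and 26.5% for KO_PBS, and 11.1% for both libraries with REG3B-Fc. Insulin transcripts took 57.5 and 58.4%, 38.9 and 38.2%, and 58.1 and 57.7% of summed FPKM in the same order of groups. The part of each of these cell types in the class II result was not tested.

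**Figure D3:**
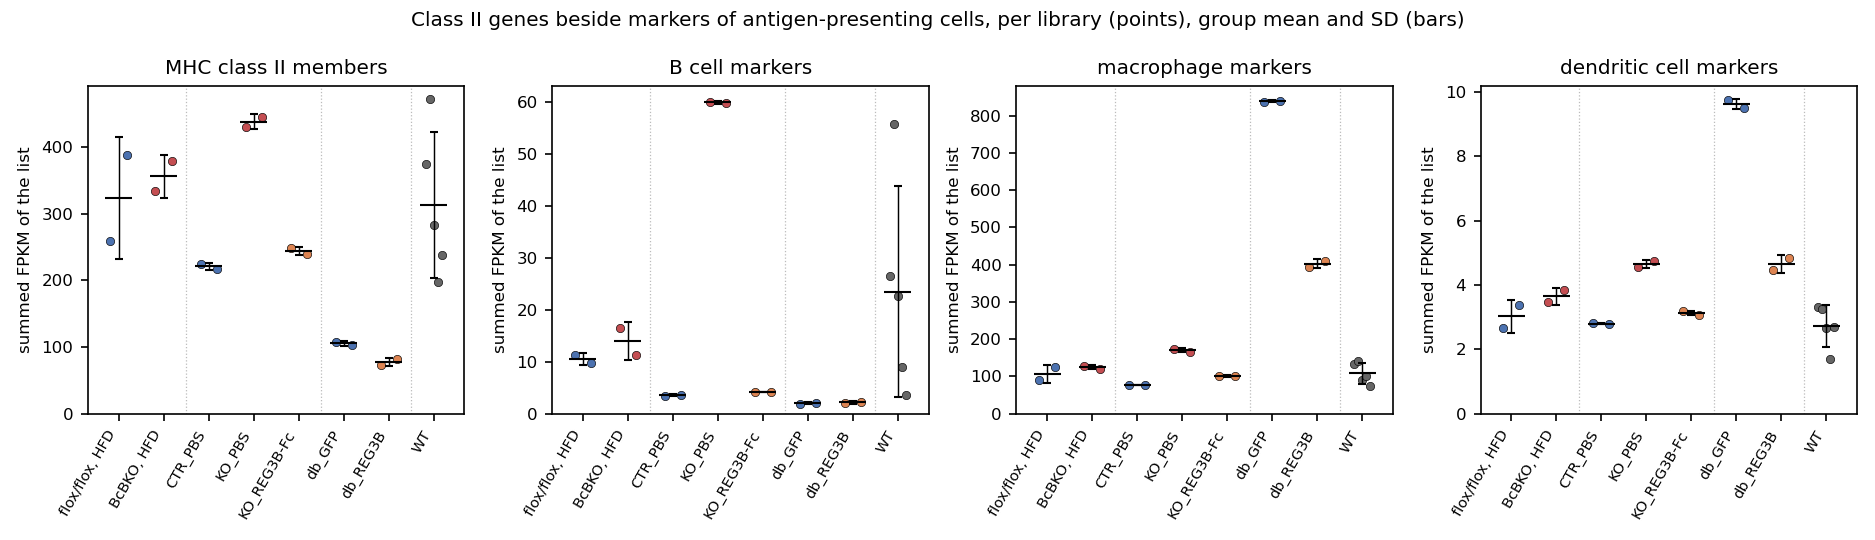
Summed FPKM (y axis) of the 8 class II genes and of the B cell, macrophage and dendritic cell marker lists in each library (points), by group (x axis), with mean and SD. B cell markers reach 60.06 and 59.72 FPKM in KO_PBS and at most 2.31 FPKM in the db libraries. Macrophage markers are highest in db_GFP at 838.36 and 841.31 FPKM. Sums of different tables need not hold the same genes. B cell sums hold 6 genes on HFD, 4 in WT and 7 in the PBS and db tables. Dendritic cell sums hold 3, 6, 7 and 5 genes in the HFD, WT, PBS and db tables. Macrophage sums hold 8 genes on HFD and 9 elsewhere.

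Among the other genes of the pathway in the PBS table, those of the class II region moved in the direction of the members on both scales. H2-Oa and H2-Ob, the chains of the DM inhibitor H2-DO, and H2-Eb2, a second E beta chain gene, all lay at 0.02 to 0.29 FPKM in CTR_PBS and at 1.06 to 3.52 FPKM in KO_PBS. In KO_REG3B-Fc they lay at 0.01 to 0.46 FPKM. All 3 passed the filter only through KO_PBS, so they are described by value. The Y box core stands in the promoter windows of H2-Oa, H2-Ob and H2-Eb2, and the X box core in that of H2-Eb2.

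The transcription factors of the class II promoters did not move as a block. Of 14 tested genes in a list of 16, 4 were called higher and 1 lower in KO_PBS than in CTR_PBS, and 1 of these 4, Irf8, entered the test only through KO_PBS. Of all genes 21.7% were called higher, so the higher calls of the list are near that background. In KO_REG3B-Fc against KO_PBS 1 was called higher and 5 lower, beside 23.8% and 22.5% of all genes. Irf8 is again among the 5. These counts rest on the scaling, since the deposited scale gave 2 higher and 11 lower, beside 8.66% and 81.5% of all genes. It then gave 12 higher and 2 lower, beside 86.2% and 6.97%. Irf8 and Spi1 are factors of B cell and myeloid development. Spi1 rose by 1.29 and then fell by 1.05 on the log2 scale. Irf8, described by value, measured 0.86 and 0.85 FPKM in controls and 4.58 and 5.48 FPKM in KO_PBS. With REG3B-Fc it measured 0.88 and 0.92 FPKM. Ifngr1 and Ifngr2, the chains of the interferon gamma receptor, were called higher by 0.52 and 0.24. On the deposited scale Ifngr1 was at 0.07 and Ifngr2 turned to -0.17. The RFX subunit genes Rfx5, Rfxank and Rfxap, which hold CIITA at the X box, were listed at 5.35 and 5.05, 3.14 and 3.13, and 5.46 and 4.64 FPKM in CTR_PBS. In KO_PBS they were at 3.64 and 3.62, 2.18 and 2.17, and 3.95 and 4.30 FPKM, below the controls as deposited. Relative to the median gene none of the 3 was called, with log2 changes of -0.03, -0.03 and 0.17. Ifng, the cytokine that induces Ciita in many cells, was listed at 0 in both CTR_PBS libraries and at 0.07 FPKM in both KO_PBS libraries.

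The endosomal enzymes that prepare peptides and trim the invariant chain were called higher in KO_PBS for 7 of 7, beside 21.7% of all genes. In KO_REG3B-Fc against KO_PBS 7 of 7 were called lower, beside 22.5% of all genes. Without scaling the first became 3 higher and 3 lower, beside 8.66% and 81.5% of all genes. The second became 4 higher and 3 lower, beside 86.2% and 6.97%. Ctsh changed most, from 4.17 and 4.69 FPKM to 11.65 and 11.61 FPKM, and to 7.04 and 7.52 FPKM with REG3B-Fc. Ctss, the main protease of the invariant chain in antigen-presenting cells, rose by 0.91 and Ifi30, an endosomal thiol reductase, by 0.88 (0.44 and 0.41 on the deposited scale). Ctsl, Ifngr1 and Ifngr2 were called lower in KO_REG3B-Fc than in KO_PBS, and their changes turned to 0.12, 0.19 and 0.17 on the deposited scale. Of 7 costimulation genes, Cd83, Icosl and Cd40 were tested, but none of the 3 would have reached the filter without the KO_PBS libraries, so their calls are not counted. Cd83 was at 0.82 and 0.58 FPKM for the controls, 2.59 and 2.23 FPKM for KO_PBS, and 0.96 and 1.22 FPKM with REG3B-Fc. Icosl was at 1.05 and 0.77, 1.90 and 2.12, and 0.82 and 0.94 FPKM in the same order. Cd40 was at 0.47 and 0.81, 1.28 and 1.09, and 0.56 and 0.48 FPKM, again in that order. MHC class I genes, which are expressed by nearly all cells, were called higher in 6 and lower in 1 of 8 in KO_PBS. The shares of all genes were 21.7% and 25.9%. They were called lower in 8 of 8 in KO_REG3B-Fc against KO_PBS, beside 22.5% of all genes. Without scaling 4 class I genes were higher and 3 lower in the first comparison, beside 8.66% and 81.5% of all genes. In the second 4 were higher and 4 lower, beside 86.2% and 6.97%. B2m, the class I light chain, rose by 1.08 and Psmb8, an immunoproteasome subunit, by 0.95. Against CTR_PBS, Ctsh was called higher in KO_REG3B-Fc by 0.50, and Ctsl, Irf1 and Tapbp were called lower by 0.15, 0.22 and 0.28. The 3 lower calls rest on the scaling. As deposited they were lost (adjusted p = 0.573, 0.145 and 0.0526). On that scale 4 genes of the transcription list, 2 of the peptide supply list and 1 of the class I list were called higher. In each list 0 were called lower, and the shares of all genes were 16.8% higher and 2.87% lower.

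In the db table the class II genes were lower with REG3B than with GFP. Of the 6 members tested, 5 were called lower, beside 24% of all genes called lower and 24.1% called higher, so a share of the table of similar size moved in each direction. Cd74 measured 51.73 and 48.74 FPKM in db_GFP and 35.02 and 39.33 FPKM in db_REG3B, a log2 change of -0.33 ± 0.06 SE (adjusted p = 0.00172). H2-Aa went from 15.13 and 13.11 FPKM to 9.76 and 10.92 FPKM (log2 change -0.32 ± 0.08 SE, adjusted p = 0.00988). H2-Ab1 went from 22.87 and 20.60 FPKM to 15.48 and 16.78 FPKM (log2 change -0.31 ± 0.06 SE, adjusted p = 0.00421). Each of these 3 genes fell by about the same proportion, with scaled means lower by 20.5 to 21.6%. H2-Eb1 stood at 7.60 and 8.86 FPKM against 6.13 and 6.15 FPKM (log2 change -0.28 ± 0.08 SE, adjusted p = 0.0220). The call of H2-Eb1 was lost with no filter on low genes (adjusted p = 0.0716), which left 4 members called.

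Of the DM genes in db islets, 1 was called lower, and the difference between the 2 changes was not tested. H2-DMb1 fell from 2.28 and 2.12 FPKM to 1.22 and 1.34 FPKM (log2 change -0.43 ± 0.09 SE, adjusted p = 0.00521). H2-DMa measured 7.65 and 8.29 FPKM in db_GFP and 5.47 and 7.02 FPKM in db_REG3B, and its log2 change of -0.23 ± 0.10 SE was not called (adjusted p = 0.0876). It was called on the deposited scale (-0.32, adjusted p = 0.0352), where 30.8% of all genes were called lower and 12.2% higher, and with the replicate number as a block (adjusted p = 0.0334). H2-DMb2, at 0.40 and 0.63 FPKM against 0.37 and 0.36 FPKM, and Ciita, at 0.16 and 0.32 FPKM against 0.11 and 0.12 FPKM, were below the filter. H2-Ea-ps, annotated as a pseudogene of the I-E alpha chain and listed in the db table alone, fell from 10.32 and 8.42 FPKM to 6.19 and 4.75 FPKM (log2 change -0.60, adjusted p = 0.00572). Without db_GFP replicate 1, or without db_REG3B replicate 1, 3 members were called in place of 5. Of the 8 members, 1 (Cd74, -0.33) passed 0.05 in the authors' deposited table.

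Markers of several other cell types moved in the same db libraries, where 24% of all genes were called lower and 24.1% higher after scaling. Macrophage genes fell by a median of 0.94 on the log2 scale, with 9 of 9 called lower. Their sum was 838.36 and 841.31 FPKM in db_GFP and 393.88 and 410.51 FPKM in db_REG3B. The dendritic list fell from 9.74 and 9.52 FPKM to 4.45 and 4.84 FPKM, most of it Itgax, an integrin shared with macrophages. B cell genes summed to 1.82 to 2.31 FPKM in all 4 db libraries, but single genes moved in opposite directions. Cd79a was at 0.08 and 0.23 FPKM in db_GFP and 1.18 and 1.34 FPKM in db_REG3B. Cd22 was at 1.27 and 1.47 FPKM in db_GFP and 0.44 and 0.62 FPKM in db_REG3B. Each of these passed the filter only through the group where it was high, so they are described by value. Ms4a1 was listed at 0 in both db_GFP libraries. Endothelial genes were called lower in 5 of 5 cases, with a median log2 change of -0.74 and sums of 68.5 and 67.33 FPKM in db_GFP against 33.71 and 36.1 FPKM in db_REG3B. Acinar enzyme genes were called lower in 5 of 7 cases, and their sum went from 750.81 and 743.35 FPKM to 397.13 and 418.26 FPKM. The fall was uneven, with a median log2 change of -0.25, a range of -1.17 to 0.13 and 2 genes above 0. Insulin transcripts took 34.6 and 35.0% of summed FPKM in db_GFP and 54.7 and 55.0% in db_REG3B. The part of each of these cell types, and of the insulin share, in the class II change was not tested.

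The genes that supply peptides were called lower with REG3B in db islets in 7 of 7 cases, led by Ctsh (-0.87), Ctss (-0.72), Ctsl (-0.71) and the legumain gene Lgmn (-0.70). Lgmn measured 78.97 and 83.06 FPKM in db_GFP and 45.48 and 47.00 FPKM in db_REG3B. Of the transcription list 6 of 14 were called lower and 0 higher, led by Spi1 (-0.95) and Irf8 (-0.65). Ifngr2, an interferon gamma receptor chain, fell by 0.62 and its partner Ifngr1 by 0.25. Cd40 (-0.87) and Cd83 (-0.43) were lower, and 7 of 8 class I genes were lower, B2m most of all at -1.30. All these counts are after scaling and stand beside 24% of all genes called lower and 24.1% higher. On the deposited scale these shares were 30.8% and 12.2%.

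On high-fat diet no change of the class II genes was found between the libraries labelled BcBKO and flox/flox. Of the 7 members tested, 0 were called in limma, 0 had an unadjusted p below 0.05, 0 of 8 passed in the authors' deposited table, and 0.00865% of all genes were called. Cd74 was at 121.63 and 182.99 FPKM for flox/flox against 154.95 and 176.34 FPKM for BcBKO, so the control range enclosed the BcBKO range. H2-Aa was at 53.72 and 81.35 FPKM against 69.03 and 82.87 FPKM, and H2-DMb1 at 2.58 and 4.97 FPKM against 3.33 and 3.61 FPKM. Both overlapped. The log2 changes ran from -0.13 ± 0.28 SE for H2-DMb1 to 0.10 ± 0.23 SE for H2-Ab1, with adjusted p = 1.000 for each. The standard errors of 0.18 to 0.37 were above those of the PBS table, and the 2 flox/flox libraries differed from each other. Flox/flox replicate 1 was the lowest of the 4 HFD libraries for each of the 8 members, and leaving it out turned the change of Cd74 to -0.28 and that of H2-DMb2 to -0.40. Ciita, at 0.11 to 0.38 FPKM, was below the filter. Of the genes in the transcription, peptide supply, costimulation and class I lists 0 genes were called by limma, and 0 had an unadjusted p below 0.05. The smallest p in each list belonged to Rfxap (-0.19, adjusted p = 1.000), Ctsh (0.50), Cd83 (0.23) and Tap1 (0.33).

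In the 5 WT libraries the class II genes varied more than within any tested group of the PBS table. Cd74 ran from 66.83 to 209.68 FPKM with a median of 129.32 FPKM, and H2-Ab1 from 25.07 to 87.83 FPKM with a median of 53.57 FPKM. H2-Aa ran from 52.53 to 99.77 FPKM (median 68.46 FPKM) and H2-Eb1 from 23.83 to 56.30 FPKM (median 33.80 FPKM). Replicate 2 was the highest for all of these. H2-DMa ranged from 2.34 to 5.88 FPKM and H2-DMb1 from 2.50 to 3.75 FPKM. H2-DMb2 was at 4.20, 7.55 and 3.87 FPKM in replicates 1 to 3, 0 in replicate 4 and 0.29 FPKM in replicate 5. Ciita was likewise at 0.67, 1.25 and 0.79 FPKM in replicates 1 to 3 and at 0.07 and 0.26 FPKM in the other 2. H2-Ob had 2.15, 3.92 and 1.64 FPKM in the same 3 libraries and 0.16 and 0.09 FPKM in the others. Of the 7 B cell genes 4 are listed in WT, and these summed to 26.47, 55.73, 22.68, 8.92 and 3.53 FPKM in replicates 1 to 5. In replicate 4 nearly all of the sum was Cd79a at 8.73 FPKM, with Cd79b at 0. The WT libraries thus differ among themselves in the genes that were high in KO_PBS, although the labels place all 5 in 1 group.

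Ratios within a library do not depend on its scaling. The ratio of H2-Aa to H2-Ab1 was 1.28 to 1.38 in KO_PBS and 1.34 to 1.38 in CTR_PBS. It was 1.19 to 1.22 in KO_REG3B-Fc, below both, and 1.26 to 1.41 in the HFD libraries. In the db libraries it was 0.630 to 0.662, less than in any library of the other tables, and in WT it ran from 1.01 to 2.73. Cd74 to H2-Ab1 was 2.90 to 2.93 in KO_PBS, 2.81 to 3.03 in CTR_PBS, 2.47 to 2.60 in KO_REG3B-Fc and 2.26 to 2.37 in the db libraries. The WT libraries alone ran from 2.33 to 3.05, a span that overlaps the range of each group named. H2-Eb1 to H2-Ab1 stood at 0.822 to 0.873 on high-fat diet, 0.562 to 0.649 in the PBS libraries, 0.332 to 0.430 in the db libraries and 0.570 to 1.29 in WT.

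The DM genes gave the widest contrasts. H2-DMa to H2-DMb1 was 3.36 to 3.91 in db_GFP and 4.48 to 5.24 in db_REG3B. In the other tables it lay between 0.819 and 1.71. H2-DMb2 to H2-DMb1 was 0.0203 and 0.0861 for the controls, 1.66 and 1.70 for KO_PBS, and 0.0690 and 0.0952 with REG3B-Fc, so the 2 DM beta chain genes changed unequally. It lay between 0.132 and 0.385 in the HFD libraries and from 0 to 2.01 in WT.

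**Figure D4:**
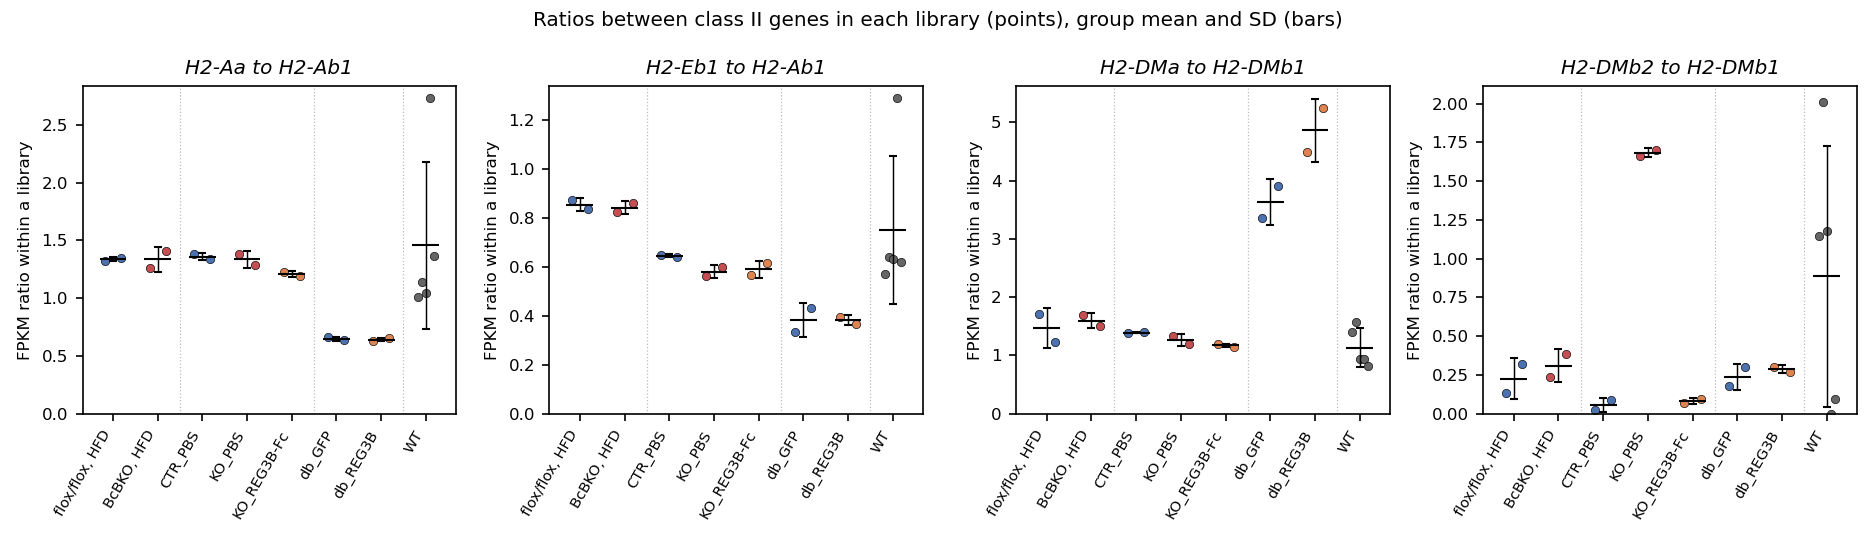
Ratio of FPKM between 2 class II genes (y axis) in each library (points), by group (x axis), with mean and SD. H2-Aa to H2-Ab1 sits at 0.630 to 0.662 in the db libraries, and H2-DMb2 to H2-DMb1 at 1.66 and 1.70 in KO_PBS against at most 0.0952 in CTR_PBS and KO_REG3B-Fc.

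The genes whose pattern was most like that of the class II members were Lcp1, Rac2, Ptprc, Cd37 and Arhgdib. Likeness was measured as Pearson's r with the mean of 6 members over 19 libraries, after each table's own mean was removed, among 10619 genes. The r values were 0.989 for Lcp1, 0.987 for Rac2, 0.986 for Ptprc, 0.982 for Cd37 and 0.981 for Arhgdib. They are descriptions, since libraries of 1 group share their treatment and the members were part of the same libraries. In the PBS table Rac2 and Cd37 reached 1 FPKM only in KO_PBS, so the r values of these genes add no support. Lcp1, an actin-bundling protein of leukocytes, measured 3.30 and 2.86 FPKM for the controls, 12.91 and 12.28 FPKM for KO_PBS, and 3.64 and 3.38 FPKM with REG3B-Fc. In WT it ran from 1.71 FPKM in replicate 4 to 12.9 FPKM in replicate 2. Cd37, a tetraspanin of B cells, was at 0.34 and 0.24 FPKM in controls against 9.44 and 9.40 FPKM in KO_PBS. In the db table Lcp1 fell by 0.60 (adjusted p = 0.000129), whereas Cd37 differed by -0.19 ± 0.10 SE (adjusted p = 0.152).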

How the data were processed

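Islet messenger RNA of 19 libraries was analysed. The authors deposited FPKM for all of them, and TPM as well for the HFD libraries, which were not used here. The deposited tables also hold the authors' own log2 fold changes with adjusted p-values for 4 comparisons, from DESeq2 in the PBS and db tables per the file headers. The build GRCm38.p6 comes from the submitters' processing notes; the aligner, the counting program and the strand of the kit are not given in the sources used here. The depth is unknown, because FPKM rounded to 0.01 resolve no single reads. All value columns were matched to a labelled sample (0 left over).

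A gene was tested if 2 or more libraries of its table reached 1 FPKM. The test was limma 3.58.1 (R 4.3.3, empirical Bayes with trend) on log2(FPKM + 1) after median scaling, in a single fit per table, and was two-sided. Benjamini-Hochberg adjustment covered every gene tested in a comparison, at a threshold of 0.05. Fold changes of low genes are understated on this scale. The fits left 3 residual degrees of freedom in the PBS table and 2 in the HFD and db tables. The code was tested on simulated data. Promoters were read from the RefSeq table of GRCm38.p6. Named were the 8 members and, of each other list, up to 4 genes with the largest change past the threshold, or 2 with the smallest p where none passed, and the 5 genes most like the members. Marker genes, Smarcd3, the RFX genes and Ifng were chosen outside this rule, after their values were seen. The members and lists were chosen with earlier results of these data known. Some genes of the B cell and transcription lists are not reported here and were left out of the lists. Alternatives were the deposited scale, a pseudocount of 0.1, no filter, replicate number as a block, each library left out in turn, and fits of only the 2 groups compared.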

Additional observations from a re-analysis of the deposited data

Results flagged for a closer look

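In the 5 WT libraries 20 quantities (the 8 members, 5 ratios, H2-Oa, H2-Ob, H2-Eb2 and 4 list sums) were examined for a library standing apart by Dixon's ratio, and 2 were found. Chance alone gives about 1 in 20. Replicate 4 had a ratio of H2-Aa to H2-Ab1 of 2.73, against 1.01 to 1.36 in the other 4 libraries. The same library had a ratio of H2-Eb1 to H2-Ab1 of 1.29, against 0.570 to 0.641 in the others. Both ratios share H2-Ab1, which at 25.07 FPKM was lowest in replicate 4.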

How the results depend on the processing

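The members' changes in KO_PBS against CTR_PBS and in KO_REG3B-Fc against KO_PBS kept direction in 84 of 84 values each under the alternatives run. They ranged from 0.77 to 5.65 and from -5.11 to -0.59. The extremes 5.65 and -5.11 belong to H2-DMb2 with a pseudocount of 0.1. The 84 values include H2-DMb2 and Ciita, which passed the filter only through KO_PBS and add no support here. Without 1 KO_PBS library these 2 genes left the test. On the deposited scale the median gene moved by -0.44 and 0.53 in these comparisons, and the calls became 1021 higher and 9603 lower, and 10157 higher and 822 lower (main 2557, 3052, 2800 and 2656). In KO_REG3B-Fc against CTR_PBS they became 1977 higher and 338 lower (main 584 and 722), with 445 lower under no filter and 215 to 347 in either direction without 1 library of these groups, and in db 1530 higher (main 3017). Without CTR_PBS replicate 1, 1959 genes were lower in KO_PBS. On HFD the 1 call became 0 without either BcBKO library, and 2 higher and 2 lower with the block. For KO_REG3B-Fc against CTR_PBS the number of members called higher was 2 on the deposited scale, 0 with no filter and 0 to 1 with a library left out. Called lower in db were 3 to 5 members with a library left out, and H2-Eb1 was lost with no filter (adjusted p = 0.0716). Directions reversed on the deposited scale for H2-DMa on HFD (0.072), for Ifngr2 (-0.17, 0.17), Ctsl (0.12) and Ifngr1 (0.19) as given above, and for Cd74 (0.092) and H2-DMa (0.066) in KO_REG3B-Fc against CTR_PBS; the cause was not tested. With a library left out, HFD changes ran from -0.28 to 0.37 for Cd74, -0.23 to 0.42 for H2-Aa, -0.22 to 0.41 for H2-Ab1, -0.24 to 0.21 for H2-DMa, -0.53 to 0.27 for H2-DMb1, -0.40 to 0.31 for H2-DMb2, -0.20 to 0.35 for H2-Eb1 and -0.024 to 0.13 for Icosl. In KO_REG3B-Fc against CTR_PBS they ran from -0.28 to 0.010 for Cd40, -0.0617 to 0.0074 for Cd74, -0.00714 to 0.018 for H2-Aa, -0.063 to 0.018 for H2-DMa, -0.022 to 0.11 for H2-Eb1, -0.0258 to 0.11 for H2-Eb2 and -0.038 to 0.15 for H2-Oa. With the replicate number as a block, H2-DMa was also called lower in db (adjusted p = 0.0334), 6 members in all; same-numbered libraries deviated together on HFD (correlation 0.67) and not elsewhere (-0.05 to 0.05), and no other member call changed with the block. The unknown depth bears most on Ciita and H2-DMb2, which are below 1 FPKM in most libraries.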
